A study of Mus musculus with 26 samples.

Results

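The effect of calorie restriction (CR) on gene expression was measured in the tibialis anterior and extensor digitorum longus (TA/EDL), the fast shin muscles that lift the foot and toes, of mice with the FLOX genotype. The comparison took the arrays titled CR diet FLOX (6 mice) and Control diet FLOX (6 mice), which are 12 of the 26 arrays of the study, 1 array for each mouse. The other 14 arrays come from littermates labelled MKO, on the same diets, and are used here only beside the FLOX values. FLOX mice, the control genotype of the study, carry floxed alleles of the gene for PGC-1a, and mice labelled MKO are described as a muscle knockout of it, on a mixed C57/BL6 and 129 background. The arrays gave no check of that knockout: transcript of the target gene, Ppargc1a, was higher and not lower in mice labelled MKO (medians 1.36 to 1.66 times those of FLOX mice over its probe sets and both diets), and where its probes lie against the deleted part is not known here, so the genotype labels were not checked. The labels give neither the Cre driver of the knockout, nor sex, nor age. Every mouse lived alone and had its free intake of AIN-93M diet recorded over at least 10 days before random assignment. Control mice then ate 90% of that intake, so they were themselves mildly restricted. CR mice ate 80% for the first week and, for about 11 more weeks, 60% as a diet formulated for 40% restriction.

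Calorie restriction is a lasting cut in food energy without malnutrition. In skeletal muscle it is studied for its effects on fuel use, mitochondria, protein turnover and the connective tissue around the fibres. Muscle fibres hold the sarcomere, built from actin and myosin, and the sarcoplasmic reticulum, which stores and releases the calcium that starts contraction. Between the fibres lie fibroblasts, vessels, nerve endings and immune cells, which add their RNA to that of the fibres.

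The tissue label was checked against 10 genes of adult fast fibres. All 10 lay at or above the 99.7th percentile of all genes, and Acta1, skeletal alpha-actin, was the brightest gene on all 12 FLOX arrays. Arrays of one diet group correlated at 0.988 to 0.995 on the control diet and at 0.988 to 0.996 on CR, and no pair of arrays held identical values. A few single mice stood apart in transcripts other than those of fast fibres. Control mouse 1 had a Myh7 (slow myosin) intensity of 1036 against 249 to 460 in the other control mice. Control mouse 3 had an Adipoq (adiponectin, a fat cell hormone) intensity of 991 against 148 to 639 in the others. Counts are therefore also given with both of these mice left out. Each array is 1 mouse, so p-values measure the spread between mice and not between repeats of the experiment.

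CR changed many genes by small amounts and few by large ones. Of 14847 genes tested, 1490 (10.0%) passed an adjusted p under 0.05, 692 of them higher on CR (4.66%) and 798 lower (5.37%). Counts of called members in the gene lists below are read against these shares. The median size of a called change was 0.22 on the log2 scale, a 1.17-fold difference, and 60.1% of called genes changed by under 0.25. Changes of at least 0.5 numbered 38 higher (0.256% of genes tested) and 71 lower (0.478%), and 16 genes changed by at least 1, of which 11 were lower. In 802 genes (5.4%) every CR mouse lay outside the range of the control mice, with the CR mice above in 345 (2.32%) and below in 457 (3.08%), and 702 of the 802 were also called. Without control mice 1 and 3, 1042 genes passed, 503 higher and 539 lower.

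**Figure D1:**
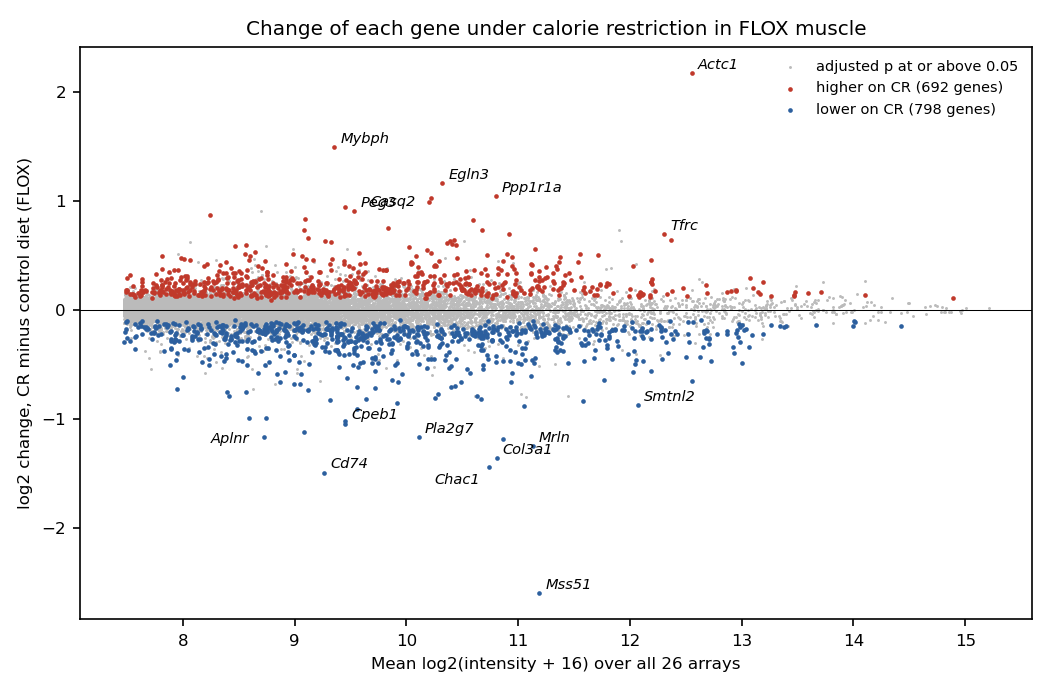
Change of each of 14847 genes on CR in FLOX muscle (vertical axis, log2 units) against its mean log2(intensity + 16) over all 26 arrays (horizontal axis), 1 point per gene. Red points (692 genes) were called higher and blue points (798 genes) lower at an adjusted p under 0.05, and Actc1 and Mss51 lie farthest from 0.

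The highest rise was in Actc1, cardiac alpha-actin, the sarcomeric actin of the heart and of developing skeletal muscle. Intensities of Actc1 were 1681 to 6143 (median 4215) in the control mice and 7116 to 24873 (median 16389) in the CR mice. All 6 CR mice lay above all 6 control mice, with CR mouse 3 the lowest of its group. The change was 2.17 ± 0.38 (log2, SE), a 4.51-fold rise (adjusted p = 0.000485 by limma with Benjamini-Hochberg adjustment, as for all adjusted p-values here). The Actc1 promoter is shown because it holds a CArG box, the element bound by serum response factor in muscle actin genes. The window covers 250 bases before and 50 after the RefSeq start site, read 5′ to 3′ on the minus strand of GRCm38.p6 (chr2:114052826-114053125), and the capitals mark the CArG box, whose first base lies at -47 from the start site.
Actc1: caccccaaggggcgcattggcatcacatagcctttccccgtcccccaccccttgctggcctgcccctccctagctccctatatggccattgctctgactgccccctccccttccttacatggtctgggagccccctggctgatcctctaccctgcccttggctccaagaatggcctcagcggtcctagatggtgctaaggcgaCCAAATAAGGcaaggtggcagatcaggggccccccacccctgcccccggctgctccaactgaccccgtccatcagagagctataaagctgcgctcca
A CArG box on either strand occurs in 1.63% of 32851 RefSeq promoter windows of the same length. A match describes the letters only and shows no binding.

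Mybph, which encodes a myosin-binding protein of the thick filament, had intensities of 405 to 764 (median 486) on the control diet and 721 to 2363 (median 1399) on CR. Of the CR mice, 5 lay above every control mouse, while CR mouse 3 lay within the control range. The rise was 1.49 ± 0.21 (log2, SE), or 2.81-fold (adjusted p = 4.07e-05). Myh8, perinatal myosin heavy chain, rose by 0.29 ± 0.08 (log2, SE, adjusted p = 0.0211), a call that ended at adjusted p = 0.0614 without control mouse 5, 0.0507 without control mouse 6 and 0.0568 without CR mouse 6. In the list of developmental and cardiac sarcomere genes, 4 of 15 tested members rose and none fell, with a list median of 0.11 against 0.0012 over all genes tested. The adult myosins did not pass. Myh4, the myosin of the fastest fibres, had intensities of 27491 to 29890.3 (median 29164) on the control diet and 28031 to 29104 (median 28786) on CR (log2 change -0.02, adjusted p = 0.734). The values for Myh1 were 0.06 (adjusted p = 0.428), for Myh2 0.27 (adjusted p = 0.191) and for Myh7 -0.09 (adjusted p = 0.938). The Myh7 value was 0.16 without control mice 1 and 3, and Myh2 reached an adjusted p of 0.0218 without CR mouse 4.

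Calcium handling showed changes in both directions. Casq2, the calsequestrin of heart and slow fibres that binds calcium in the sarcoplasmic reticulum, had intensities of 686 to 1093 (median 960.5) in control and 1389 to 2217 (median 1839.6) in CR mice. The groups did not overlap, and the rise was 0.99 ± 0.16 (log2, SE, 1.99-fold, adjusted p = 0.000207). Mrln encodes myoregulin, a micropeptide that slows calcium uptake by the SERCA pump. Its intensities were 2428 to 3062 (median 2799.8) in control and 827 to 1886 (median 1111) in CR mice, with every CR mouse below every control mouse, a fall of 2.37-fold (-1.25 ± 0.15, log2, SE, adjusted p = 6.03e-06). Stac3, which links the voltage sensor to calcium release, fell by 1.25-fold (log2 change -0.32, adjusted p = 0.000552). Over the calcium list, 2 of 24 tested members rose and 4 fell (8.33% and 16.7%, against 4.66% and 5.37% of all genes, median -0.038). The fallers numbered 2 without control mouse 2, 3, 4 or 5 or CR mouse 1 or 4, without control mice 1 and 3, and with median centring. The risers numbered 1 without any single mouse other than CR mouse 2, and without control mice 1 and 3. They also numbered 1 with no filter, with median centring and with array number as a block. Mylk2, the kinase of the fast myosin light chain, ranged over 5117 to 5945 (median 5615) in control and 3505 to 4227 (median 3715) in CR mice. It fell without overlap by 1.47-fold (log2 change -0.56, adjusted p = 3.69e-06). Myoz2, a Z-disc protein of slow fibres, rose by 1.56-fold (log2 change 0.64, adjusted p = 0.0117) with 1 CR mouse inside the control range. Casq2 and Myoz2 were the 2 risers among 16 tested slow-fibre genes (12.5%), whose median was 0.0013, and no slow-fibre gene fell. Of 20 fast-fibre genes 1 rose and 3 fell (5% and 15%, against 4.66% and 5.37% of all genes, median -0.018).

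**Figure D2:**
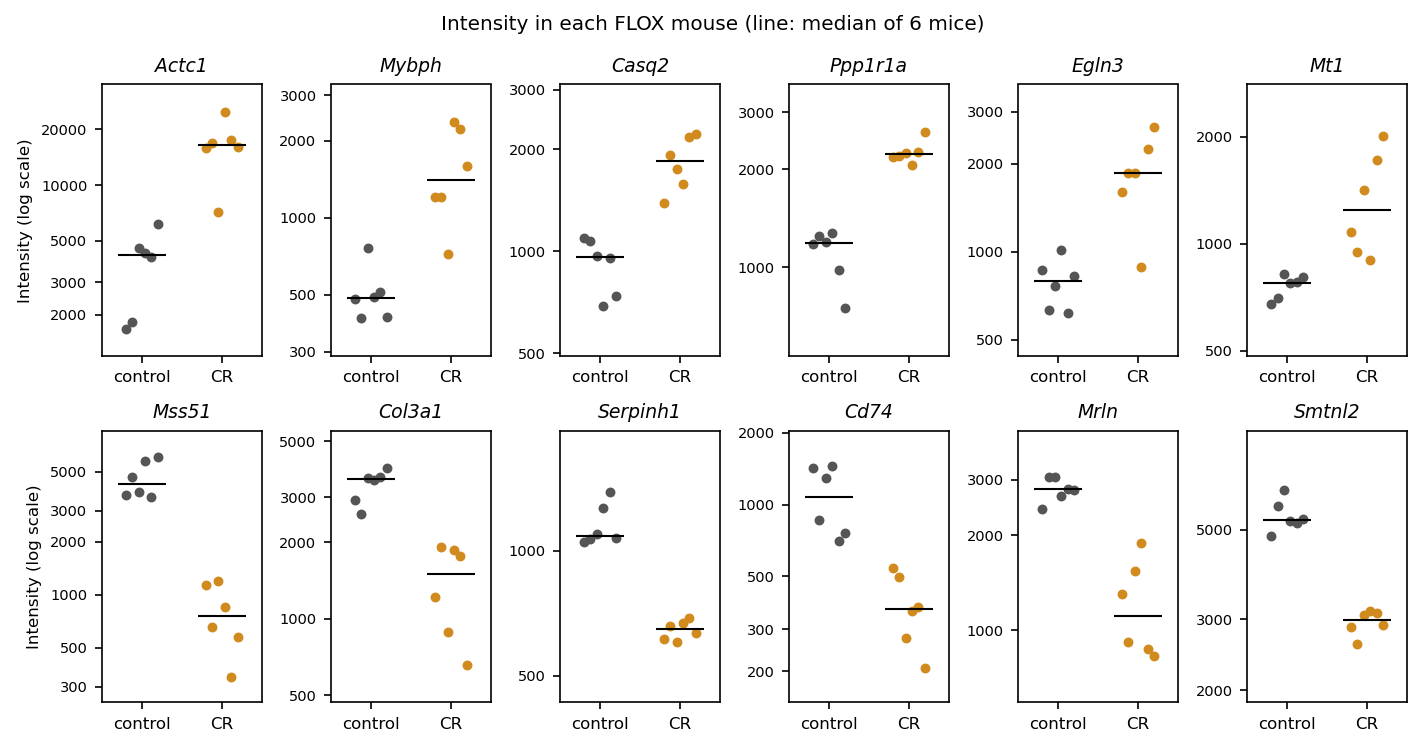
Intensity (vertical axis, log scale) of 12 genes in each of the 6 control-diet and 6 CR FLOX mice, 1 point per mouse, with a line at the group median. The groups do not overlap for Actc1, Casq2, Ppp1r1a, Mt1, Mss51, Col3a1, Serpinh1, Cd74, Mrln and Smtnl2, and they do for Mybph and Egln3.

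Transcripts of the extracellular matrix, the protein mesh around and between fibres, were lower on CR across its parts. Matrix protein was not measured. Of 106 tested matrix genes in 5 lists, 40 fell (37.7%, against 5.37% of all genes) and 1 rose, Agrn, a call lost without some single mice. The median over the 106 genes was -0.17. In 26 of the 106 every CR mouse lay below every control mouse, against the 3.08% of all genes. Without control mice 1 and 3, 30 matrix genes fell. The mean log2 level of the 106 genes lay between 9.28 and 9.45 in the control mice and between 9.02 and 9.25 in the CR mice, so the groups did not overlap. In whole muscle, fewer cells of a type and less RNA per cell cannot be told apart.

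Of 13 tested interstitial collagen genes, 8 fell and none rose, with a list median of -0.47. Col3a1, the chain of type III collagen, had intensities of 2591 to 3912 (median 3546) on the control diet and 655 to 1918 (median 1494) on CR. No mouse overlapped with the other group, and the fall was 2.57-fold (-1.36 ± 0.24, log2, SE, adjusted p = 0.000537). On the other Col3a1 probe set the fall was 1.61-fold. Col1a1 and Col1a2 encode the chains of type I collagen. Col1a2 ranged over 2141 to 5149.7 (median 3284) in control and 1154 to 1873 (median 1423) in CR mice, a fall of 2.27-fold (adjusted p = 0.000744). Col1a1 ranged over 767 to 2015 (median 1178) and 477 to 701 (median 567), a fall of 2.03-fold (adjusted p = 0.000477). On their other probe sets Col1a2 fell by 2.66-fold and Col1a1 by 2.13-fold. Control mice 4, 5 and 6 held the 3 highest values of both type I chains. Type V and type VI chains also fell, with log2 changes of -0.66 for Col5a2, -0.45 for Col5a3 and -0.66 for Col6a2 (adjusted p = 0.000146, 0.000168 and 0.000242).

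The basement membrane, the sheet that wraps each fibre, is built on type IV collagen. Col4a1 had intensities of 1664 to 2102 (median 1709.6) in control and 901 to 1174 (median 982) in CR mice and fell by 1.75-fold (log2 change -0.80, adjusted p = 2.15e-05). Col4a2 had intensities of 1749.98 to 2225 (median 1899) and 1058 to 1300.1 (median 1234) and fell by 1.58-fold (log2 change -0.66, adjusted p = 3.4e-05). Neither gene's groups overlapped. Sparc, a collagen-binding matrix protein, went from 3454 to 5327 (median 4768) to 2183 to 2745 (median 2443), a fall of 1.79-fold (adjusted p = 3.8e-05), again without overlap. Its other probe sets gave falls of 1.84-fold and 1.1-fold, the latter not called (adjusted p = 0.578). Of 20 basement membrane genes 7 fell and 1 rose (median -0.14). None rose without control mouse 3 or 4 or CR mouse 1, or without control mice 1 and 3. The same held with only FLOX arrays and with array number as a block.

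The promoters of 3 collagen genes that fell are shown because Col4a1 and Col4a2 lie on opposite strands with start sites 21 bases apart and their windows share 78 bases, while Col1a2 stands alone. Each covers the same span around its RefSeq start site in GRCm38.p6, 5′ to 3′ on the gene's strand: Col1a2 on the plus strand (chr6:4505368-4505667), Col4a1 on the minus strand (chr8:11312777-11313076) and Col4a2 on the plus strand (chr8:11312555-11312854). Capitals mark CCAAT on either strand (ATTGG where it lies on the other strand), which occurs in 37.4% of all promoter windows.
Col1a2: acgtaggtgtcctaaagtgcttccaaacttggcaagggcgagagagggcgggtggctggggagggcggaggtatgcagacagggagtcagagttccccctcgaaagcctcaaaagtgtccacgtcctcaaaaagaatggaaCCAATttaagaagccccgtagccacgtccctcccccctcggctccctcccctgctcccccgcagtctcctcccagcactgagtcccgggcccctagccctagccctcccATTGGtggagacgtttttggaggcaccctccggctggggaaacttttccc
Col4a1: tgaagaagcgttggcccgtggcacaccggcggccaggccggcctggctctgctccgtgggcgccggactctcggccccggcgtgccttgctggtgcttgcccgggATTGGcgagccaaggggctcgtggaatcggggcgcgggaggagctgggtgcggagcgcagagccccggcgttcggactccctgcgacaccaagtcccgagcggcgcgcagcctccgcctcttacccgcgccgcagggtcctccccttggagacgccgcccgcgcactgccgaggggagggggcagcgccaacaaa
Col4a2: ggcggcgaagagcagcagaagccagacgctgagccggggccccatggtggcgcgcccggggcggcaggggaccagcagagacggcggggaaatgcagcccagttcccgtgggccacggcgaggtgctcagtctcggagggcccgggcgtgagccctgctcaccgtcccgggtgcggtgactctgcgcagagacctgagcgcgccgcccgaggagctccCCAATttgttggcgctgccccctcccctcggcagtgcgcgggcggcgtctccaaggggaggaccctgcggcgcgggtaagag
Col1a2 holds 2 matches, beginning at -109 and 0 from the start site, and Col4a1 and Col4a2 hold 1 each, at -145 and -32. Of the 8 called interstitial collagen genes 6 had a window, and 2 of these held CCAAT.

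Enzymes and chaperones that fold, trim and cross-link collagen fell along with it: 11 of 23 tested genes fell and none rose (median -0.18). Serpinh1 encodes HSP47, the collagen chaperone of the endoplasmic reticulum. Its intensities were 1050.3 to 1389.7 (median 1085) in control and 604 to 688 (median 647) in CR mice, narrow ranges that did not overlap, and the fall was 1.77-fold (-0.82 ± 0.08, log2, SE, adjusted p = 3.26e-07). The prolyl hydroxylase subunits P4ha2 and P4ha1 changed by -0.26 and -0.29 (adjusted p = 0.00205 and 0.0101, the latter 0.0711 without control mice 1 and 3), and the lysyl hydroxylase Plod1 by -0.22 (adjusted p = 0.00524). Among proteoglycans and elastic fibre genes 8 of 32 fell (median -0.17). Fmod, fibromodulin, which binds collagen fibrils, ranged over 2062 to 4459 (median 2951) in control and 1112 to 1969 (median 1635) in CR mice and fell by 1.84-fold (adjusted p = 0.00689). Prelp, a related small proteoglycan, ranged over 598 to 842 (median 653) and 378 to 450.4 (median 413) and fell by 1.6-fold (adjusted p = 4.07e-05). Neither overlapped between diets. Ltbp4, which holds latent TGF-beta in the matrix, changed by -0.48 (adjusted p = 6.84e-05). Of 19 matrix proteases and inhibitors 7 fell, among them Serpinf1 (PEDF, -0.85, adjusted p = 1.79e-05), Htra1 (-0.40, adjusted p = 0.00171) and cathepsin K, Ctsk (-0.28, adjusted p = 0.00547). Without control mice 1 and 3 these 3 lists held 7, 5 and 4 fallers, and the protease list held 4 by the mean of probe sets.

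Markers of the cells that make matrix moved with these genes. Of 20 tested fibroblast markers 10 fell and all 20 had a change below 0 (median -0.34). Their summed intensity was 33013 to 38986 in the control mice and 23094 to 33041 in the CR mice. Thy1, a surface protein of fibroblasts, had intensities of 237 to 277 (median 254) in control and 173 to 208 (median 193) in CR mice, without overlap, and fell by 1.3-fold (adjusted p = 0.000356). Smoc2, a secreted matrix protein, fell by 1.43-fold (adjusted p = 0.000362). Of 11 tendon markers 6 fell and all 11 were below 0 (median -0.46), with sums of 8061 to 12197 in control and 5932 to 7452 in CR mice. Tnmd, tenomodulin, ranged over 531 to 1037 (median 708) in control and 368 to 513 (median 455) in CR mice and fell by 1.67-fold (adjusted p = 0.00118). Chad, chondroadherin, ranged over 364 to 562 (median 446) and 191 to 289.7 (median 256) and fell by 1.73-fold (adjusted p = 0.000537). Kera, keratocan, changed by -0.46 (adjusted p = 0.00658). Without control mice 1 and 3, 6 fibroblast markers fell. Both lists share genes such as Fmod, Dcn and Col3a1 with the matrix lists, no marker was listed at 0, and the part of these cells in the fall of matrix genes was not tested.

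Genes for presenting antigen on MHC class II, a task of dendritic cells and macrophages, were lower on CR. Of 12 tested genes of this list 5 fell and none rose (median -0.12), and 6 fell without control mice 1 and 3. The list also holds markers of dendritic cells, such as Itgax and Zbtb46. Cd74, the invariant chain that accompanies class II molecules, had intensities of 706 to 1455 (median 1078) in control and 207 to 545 (median 365) in CR mice. Every CR mouse lay below every control mouse, and the fall was 2.82-fold (-1.49 ± 0.25, log2, SE, adjusted p = 0.000293). H2-Ab1, a class II beta chain, ranged over 645 to 1119.8 (median 793) and 262 to 496 (median 375) and fell by 2.18-fold (adjusted p = 0.000181). Its other probe sets fell by 1.33-fold and 1.38-fold. H2-Eb1, another beta chain, ranged over 417 to 602 (median 474) and 298 to 384 (median 316) and fell by 1.49-fold (adjusted p = 0.00104). CR mouse 6 had the lowest Cd74 intensity of the 12 mice. In the class I and interferon list 3 of 26 genes fell (11.5%, against 5.37% of all genes) and none rose. They were B2m, the light chain of class I molecules (-0.57, adjusted p = 0.00188), H2-K1 (-0.50, adjusted p = 0.00873) and H2-D1 (-0.47, adjusted p = 0.0193). H2-D1 lost its call without control mouse 1 (adjusted p = 0.0517) or CR mouse 5 (0.0611), and without control mice 1 and 3 (0.0964). Without CR mouse 1, 7 genes of that list fell.

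Of 27 general macrophage markers tested, 2 fell (7.41%, against 5.37% of all genes) and none rose (median -0.11), with summed intensities of 13537 to 16201 in control and 12267 to 15490 in CR mice, which overlap. Adgre1 (F4/80) changed by -0.15 (adjusted p = 0.0299), a call lost without any of 6 single mice (highest adjusted p 0.0876, without CR mouse 5) and without control mice 1 and 3 (0.0929). For the other faller, Maf, the mean of its probe sets gave 0.012 in place of -0.35. Of its 6 probe sets, each tested by itself, 2 were called lower and 2 higher. Among 10 T, B and NK cell genes none passed, with Cd4 at -0.08 (adjusted p = 0.414) and Nkg7 at 0.10 (adjusted p = 0.159). No tested marker of these lists was listed at 0.

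At the neuromuscular junction, where the motor nerve meets the fibre, 4 of 20 tested genes rose (20%, against 4.66% of all genes) and none fell, with 19 of 20 changes above 0 (against 50.6% of all genes) and a median of 0.094. Chrna1 encodes the acetylcholine receptor subunit that binds the transmitter. Its intensities were 439.8 to 496 (median 465) in control and 535 to 718 (median 646) in CR mice, with no overlap, and the rise was 1.37-fold (0.46 ± 0.09, log2, SE, adjusted p = 0.00137). Chrnb1, the beta subunit of the same receptor, ranged over 732 to 877 (median 794) and 927 to 1070.05 (median 991) and rose by 1.24-fold (adjusted p = 0.00323), also without overlap. Etv5, a transcription factor of the nuclei beneath the junction, rose by 1.25-fold (adjusted p = 0.00269). Myog, myogenin, a myogenic factor that binds E-boxes of receptor genes, had intensities of 267 to 287 (median 278) in control and 313 to 458 (median 331) in CR mice, without overlap, and rose by 1.26-fold (adjusted p = 0.00159). Mef2c, a factor that works with myogenic regulators, fell by 1.23-fold (log2 change -0.30, adjusted p = 0.000173), and Eya1, a phosphatase and cofactor of muscle development, by 1.22-fold (adjusted p = 0.00821, and 0.0803 without control mice 1 and 3). Without those mice 3 junction genes rose.

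The Chrna1 promoter is shown because Chrna1 and Myog rose together, and its capitals mark CAGCTG, an E-box that reads the same on both strands (GRCm38.p6, chr2:73580289-73580588, minus strand, RefSeq start site, same span).
Chrna1: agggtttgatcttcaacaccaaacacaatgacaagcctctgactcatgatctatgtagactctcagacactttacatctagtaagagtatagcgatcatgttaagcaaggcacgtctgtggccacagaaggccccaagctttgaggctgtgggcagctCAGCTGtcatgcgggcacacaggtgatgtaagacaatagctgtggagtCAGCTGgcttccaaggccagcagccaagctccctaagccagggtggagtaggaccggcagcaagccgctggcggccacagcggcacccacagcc
The 2 matches begin at -92 and -44 from the start site. CAGCTG occurs in 16.3% of all promoter windows and in 2 of the 4 called junction genes, and binding was not measured.

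Nuclear genes of the mitochondrial ribosome, which translates the proteins encoded by mitochondrial DNA, rose by small amounts. Of 76 tested, 25 rose (32.9%, against 4.66% of all genes) and 1 fell, with 65 of 76 changes above 0 and a median of 0.12. Their mean log2 level was 10.59 to 10.70 in control and 10.66 to 10.77 in CR mice, which overlap, CR mouse 3 lying below control mouse 6. Mrps2 ranged over 671 to 796 (median 697) in control and 837 to 957 (median 920.03) in CR mice and rose by 1.25-fold (adjusted p = 0.000149). Mrps30 ranged over 877 to 1020.1 (median 964) and 1098 to 1169 (median 1128) (1.18-fold, adjusted p = 0.000239) and Mrps31 over 1021 to 1143 (median 1097) and 1249.7 to 1389 (median 1364) (1.24-fold, adjusted p = 0.000621). None of these 3 genes overlapped between diets. The number of risers was 19 without control mice 1 and 3. Of 32 genes of protein import and quality control 7 rose and none fell (median 0.066), among them the import motor genes Grpel1 (0.22, adjusted p = 0.0013) and Timm44 (0.21, adjusted p = 0.00263) and the chaperone Dnaja3 (0.22, adjusted p = 0.00342; 0.584 by the mean of its probe sets). Dnm1l, the GTPase that divides mitochondria, rose by 1.22-fold (adjusted p = 0.00166), and Mars2, the mitochondrial methionyl-tRNA synthetase, by 1.25-fold (adjusted p = 0.00281). Tsfm, a mitochondrial elongation factor, changed by 0.14 (adjusted p = 0.0223; 0.0527 to 0.0552 without control mouse 2 or 3 or CR mouse 4).

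In the respiratory chain and ATP synthase 3 of 78 genes rose and 5 fell, 10.3% against 10.0% of all genes. None of 33 complex I genes rose and 2 fell (median 0.0058). No gene of complexes II and III passed among 14 tested, with Uqcrc2 at 0.08 (adjusted p = 0.23) and Uqcr11 at -0.09 (adjusted p = 0.255). In complex IV 1 of 14 rose, Cox7a2 (0.16, adjusted p = 0.0108), and 2 fell, Cox7a2l (-0.14, adjusted p = 0.0224) and Cox6c (-0.10, adjusted p = 0.0348). In ATP synthase 2 of 17 rose, Atp5o (0.12, adjusted p = 0.0283) and Atp5g1 (0.13, adjusted p = 0.0443), and 1 fell. Ndufa1 of complex I (-0.14, adjusted p = 0.0292), Cox7a2l, Cox6c, Atp5o and Atp5g1 each lost the call without some single mice, and Cox7a2, Cox7a2l, Atp5o and Atp5g1 under quantile normalization (0.0866, 0.131, 0.176 and 0.1). Ndufa13, an accessory subunit of complex I, had intensities of 11493 to 12394 (median 11883) in control and 10102 to 11349.5 (median 10689.7) in CR mice and fell by 1.11-fold (adjusted p = 0.00846). Atp5j, a stalk subunit of ATP synthase, ranged over 11101 to 12101 (median 11355) and 9979 to 10962 (median 10266) and fell by 1.11-fold (adjusted p = 0.0143). Cs, citrate synthase, the entry enzyme of the TCA cycle, ranged over 9354 to 10374 (median 9931) and 10377 to 11600.00 (median 11062) and rose by 1.12-fold (adjusted p = 0.0108, and 0.0654 without control mice 1 and 3). It was the only called gene among 18 TCA genes. The groups did not overlap for any of these 3 genes, small as the changes were.

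Ppargc1a, which encodes the coactivator PGC-1a of mitochondrial genes, had intensities of 797 to 985 (median 923) in control and 908 to 1411 (median 1021) in CR mice on its brightest probe set. The log2 change there was 0.26 ± 0.11 (SE, adjusted p = 0.159), and 5 of 6 CR mice lay above every control mouse. All 5 Ppargc1a probe sets had a change above 0, from 0.26 to 0.39, and 2 of the 5 were called when each probe set was tested by itself. In mice labelled MKO the brightest probe set ranged over 1244 to 2360 (median 1425) on the control diet and 1473 to 1966 (median 1641) on CR (7 mice each), above all FLOX mice of the same diet. The median was higher in MKO on all 5 probe sets, by 1.48 to 1.66 times on the control diet and 1.36 to 1.62 times on CR. Among 25 regulators of mitochondrial gene expression 3 rose (12%, against 4.66% of all genes) and 1 fell. The number of risers was 1 without control mouse 4 or CR mouse 1, 5 or 6, and 5 with array weights. Polg2, the accessory subunit of the mitochondrial DNA polymerase, changed by 0.17 (adjusted p = 0.0143). Ppara, a nuclear receptor for fatty acids, changed by 0.34 (adjusted p = 0.025), Tfb1m by 0.13 (adjusted p = 0.046) and Esrrb by -0.37 (adjusted p = 0.0276). Ppara, Tfb1m and Esrrb each lost the call without single mice, with highest adjusted p of 0.0768 (without control mouse 3), 0.111 (without CR mouse 5) and 0.0824 (without control mouse 2) among those refits. Ppara reached 0.169 without control mice 1 and 3. Tfb1m lost the call in 17 of 24 settings, with 0.183 by the mean of its probe sets. By that mean Esrrb had an adjusted p of 0.213, and 2 of its 3 probe sets changed by 0.023 and 0.059 in place of -0.37.

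Cytosolic ribosomal protein genes also rose slightly. Of 42 tested 12 rose and none fell (median 0.088), and their mean log2 level was 12.01 to 12.06 in control and 12.09 to 12.17 in CR mice. Rps28 ranged over 6655 to 7673 (median 7350.3) in control and 8343 to 9624 (median 8858) in CR mice (1.23-fold, adjusted p = 0.000193), without overlap. Rps26 rose by 1.15-fold (adjusted p = 0.00034) and Rps2 by 1.12-fold (adjusted p = 0.00206). Ribosomal protein genes have many processed copies in the genome, which such probe sets may not tell apart, and 33 of the 76 listed had no probe set naming them alone.

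Fuel genes split by pathway. In the breakdown of branched-chain and other amino acids 9 of 25 tested genes rose and 2 fell (median 0.083), and 6 rose without control mice 1 and 3. Ppm1k, the phosphatase that activates the branched-chain ketoacid dehydrogenase, had intensities of 572 to 746 (median 645) in control and 816 to 1031 (median 888) in CR mice, without overlap, and rose by 1.37-fold (adjusted p = 0.000113). Mccc2, of leucine breakdown, rose by 1.16-fold (adjusted p = 0.000956; 0.133 by the mean of its probe sets). Hibch, an enzyme of valine breakdown, ranged over 1165 to 1314 (median 1232) and 1419 to 1563 (median 1466) and rose by 1.19-fold (adjusted p = 0.000782). Of 26 fatty acid oxidation genes 3 rose (11.5%, against 4.66% of all genes) and none fell. Echs1, the enoyl-CoA hydratase, ranged over 2470.3 to 2913 (median 2724) and 3262 to 3829 (median 3626) and rose by 1.32-fold (adjusted p = 5.86e-05). Eci2, which isomerises enoyl-CoA, rose by 1.23-fold (adjusted p = 0.00458) and Etfa, which passes on electrons from this pathway, by 1.1-fold (adjusted p = 0.0407), a call that Etfa lost in 13 of 24 settings. In fat storage and lipolysis 4 of 25 rose (16%) and 3 fell (12%, with 1 faller by the mean of probe sets). Dgat2, the last enzyme of triglyceride synthesis, rose by 1.46-fold (adjusted p = 0.00451) and Pnpla2, the triglyceride lipase ATGL, by 1.36-fold (adjusted p = 0.00243), while Gpam, the first acyltransferase of glycerolipid synthesis, fell by 1.23-fold (adjusted p = 0.00188). Dgat2 was the single called gene among 13 fat cell markers, whose sums of 47844 to 60369 in control and 48943 to 54975 in CR mice overlap. Among 28 lipogenic genes Mid1ip1, an activator of acetyl-CoA carboxylase, rose by 1.66-fold (adjusted p = 0.011, and 0.0854 without control mice 1 and 3) and Me1, malic enzyme, fell from 4195 to 5574 (median 4256) to 2716 to 3555 (median 3313) without overlap (1.38-fold, adjusted p = 0.000405).

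Glycogen genes changed in both directions, 3 of 18 up and 4 down (16.7% and 22.2%, against 4.66% and 5.37% of all genes). The fallers numbered 2 without control mouse 2 or 3, and 1 without control mice 1 and 3. Ppp1r1a encodes inhibitor-1, which restrains protein phosphatase 1. Its intensities were 746 to 1276 (median 1185) in control and 2064 to 2605 (median 2228) in CR mice, without overlap, and it rose by 2.06-fold (1.04 ± 0.12, log2, SE, adjusted p = 3.38e-06). Phka1, the muscle regulatory subunit of phosphorylase kinase, ranged over 7536 to 9043 (median 8086) and 6066 to 6759 (median 6631) and fell by 1.26-fold (adjusted p = 9.34e-05). Gbe1, the glycogen branching enzyme, rose by 1.47-fold (adjusted p = 0.00262). In glycolysis and glucose use 3 of 22 rose and 2 fell (13.6% and 9.09%). The risers numbered 1 without control mouse 2, and without control mice 1 and 3. Pgk1, phosphoglycerate kinase, was among those that rose (0.15, adjusted p = 0.0187; 0.194 under quantile normalization and 0.0509 without control mouse 2). Pfkm, muscle phosphofructokinase, had intensities of 22374 to 23334 (median 22563) and 19527 to 21199 (median 20634), a fall of 1.11-fold without overlap (adjusted p = 0.00193). Pdp1, the phosphatase that activates pyruvate dehydrogenase, ranged over 2051 to 2513 (median 2290.2) and 2684 to 4157 (median 3138) and rose by 1.4-fold (adjusted p = 0.00034). Sirt5, the mitochondrial desuccinylase, rose by 1.2-fold (adjusted p = 0.000474) as 1 of 3 risers among 18 sirtuin and NAD genes (1 without control mouse 2), and Nnt, which makes mitochondrial NADPH, by 1.41-fold (adjusted p = 0.0173, and 0.05 without control mouse 2). Sirt4, another mitochondrial sirtuin, changed by 0.25 (adjusted p = 0.0292; 0.0526 to 0.0837 in the 6 single-mouse refits that lost the call).

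The largest fall of all genes was in Mss51, a zinc-finger gene of fast skeletal muscle whose level is known to respond to myostatin. Intensities of Mss51 were 3587 to 6075 (median 4249) in control and 342 to 1202 (median 753) in CR mice, so the brightest CR mouse was far below the dimmest control mouse. The fall was 6.06-fold (-2.60 ± 0.25, log2, SE, adjusted p = 3.89e-07). In the list of myostatin, Mss51 and myokine genes 3 of 23 fell (13%, against 5.37% of all genes) and 1 rose (median -0.045). The number that fell was 5 with the 50th percentile filter, by the mean of probe sets and with array weights. Fstl1, a secreted follistatin-like protein, fell by 1.63-fold with overlap (adjusted p = 0.00466), and Dcn, decorin, a proteoglycan that binds TGF-beta family ligands, by 1.32-fold (adjusted p = 0.00724, and 0.0524 without control mice 1 and 3).

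Of 26 insulin and IGF genes 7 fell and 1 rose (26.9% and 3.85%, against 5.37% and 4.66% of all genes, median -0.073). The fallers numbered 4 without CR mouse 5 and also without control mice 1 and 3. Igfbp7, an IGF-binding protein, had intensities of 2129 to 2799 (median 2231) in control and 1588 to 1738 (median 1682) in CR mice, without overlap, and fell by 1.4-fold (adjusted p = 0.000424). Igfbp5 fell by 1.37-fold (adjusted p = 0.00821) and Phlpp1, a phosphatase of AKT, by 1.11-fold (adjusted p = 0.00841). Prkab2, the muscle beta subunit of AMPK, the kinase that senses low energy, ranged over 4104 to 4799 (median 4449) and 3018 to 3715 (median 3319) and fell by 1.32-fold (adjusted p = 0.000553), and Stk11, which activates AMPK, by 1.13-fold (adjusted p = 0.00507; 0.362 by the mean of its probe sets). These were the 2 called genes among 10 of the AMPK list (20%, against 10.0% of all genes). In the mTOR and protein synthesis list 3 of 25 fell (12%, against 5.37% of all genes) and none rose. Eef2, the elongation factor that moves the ribosome, changed by -0.22 (adjusted p = 0.0056). Rheb, the GTPase that activates mTOR, changed by -0.11 (adjusted p = 0.0264) and Ddit4l, an mTOR inhibitor, by -0.45 (adjusted p = 0.0226). Rheb and Ddit4l each lost the call without some single mice (highest adjusted p 0.0744, without CR mouse 2, and 0.0666, without CR mouse 6), and 1 gene of the list fell without control mice 1 and 3.

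Genes of protein turnover were mostly lower where they passed. Sqstm1 encodes p62, the receptor that brings tagged proteins to autophagosomes. It ranged over 6435 to 7509 (median 6793) in control and 4741 to 5822 (median 4929.9) in CR mice, without overlap, and fell by 1.35-fold (-0.43 ± 0.05, log2, SE, adjusted p = 3.69e-06). The kinases that start autophagy fell with it: Ulk2 from 1768 to 2156 (median 1924) to 1330.3 to 1509 (median 1460.2) (adjusted p = 1.44e-05) and Ulk1 from 1094 to 1435 (median 1237) to 821 to 1032 (median 964) (adjusted p = 0.00047), both without overlap. Gabarapl1, an ATG8 protein of the autophagosome membrane, fell by 1.25-fold (adjusted p = 0.000854), whereas its relative Map1lc3a rose by 1.22-fold (adjusted p = 0.000832). Over the autophagy list 7 of 31 fell and 3 rose (22.6% and 9.68%, against 5.37% and 4.66% of all genes). The list median was -0.073, and the risers numbered 1 without CR mouse 6. Of 34 proteasome genes 6 fell (17.6%, against 5.37% of all genes) and none rose. In 6 of the 34 every CR mouse lay below every control mouse, against 3.08% of all genes, and 5 of these were called. Among the 5 were Psmd1 (-0.20, adjusted p = 0.000469), Psmd7 (-0.27, adjusted p = 0.00124) and Psma5 (-0.19, adjusted p = 0.00243).

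Cytosolic chaperones fell in part: 4 of 31 heat shock genes fell (12.9%, against 5.37% of all genes) and 1 rose (3.23%, against 4.66%). Dnaja1, a co-chaperone of HSP70, had intensities of 1187 to 1369 (median 1282) in control and 879.9 to 1071 (median 912) in CR mice and fell by 1.36-fold (adjusted p = 3.4e-05). Hsp90aa1, inducible HSP90, ranged over 1868 to 2405 (median 2105) and 1525 to 1703 (median 1632) and fell by 1.31-fold (adjusted p = 0.00034). Dnajb1, another HSP70 co-chaperone, fell by 1.19-fold (adjusted p = 0.000804), and none of the 3 overlapped. In the endoplasmic reticulum stress list 4 of 32 fell (12.5%) and 1 rose (3.1%). The fallers included Pdia3, a disulfide isomerase (-0.25, adjusted p = 0.00328). Chac1, which degrades glutathione and is a target of the ATF4 stress pathway, had intensities of 875 to 4616 (median 2825) in control and 491 to 1636 (median 972) in CR mice. It fell by 2.72-fold (adjusted p = 0.00849) with wide overlap, 3 CR mice lying below every control mouse. Vldlr, the VLDL receptor, fell by 1.38-fold (adjusted p = 0.00016) and Cth, a cysteine-making enzyme, rose by 1.19-fold (adjusted p = 0.0048).

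Shares of called genes in the next lists are read against 4.66% of all genes higher and 5.37% lower. Glucocorticoid targets rose in 3 of 25 (12%) and fell in none (median 0.077), with 1 riser without CR mouse 6 and 5 without CR mouse 4. Fkbp5, a chaperone that dampens the glucocorticoid receptor, ranged over 915 to 1153 (median 966) in control and 1115 to 2062 (median 1511) in CR mice and rose by 1.52-fold (adjusted p = 0.0104). Mt1, a metal-binding metallothionein, ranged over 677 to 822 (median 777) and 900.3 to 2002 (median 1246) without overlap and rose by 1.68-fold (adjusted p = 0.0206; 0.0578 without CR mouse 5, 0.0622 without CR mouse 6 and 0.0635 without control mice 1 and 3). CR mice 3, 5 and 6 had the 3 highest values of both genes. The other probe set of each gene rose by 1.25-fold for Mt1 and 1.4-fold for Fkbp5. Lcn2, lipocalin-2, rose by 1.24-fold (adjusted p = 0.022, and 0.0626 without CR mouse 6). Lcn2 was dim, at 137 to 157 (median 146) in control and 171 to 218 (median 181) in CR mice. Every control mouse lay under the intensity cut of the filter. That cut was applied to the mean of each probe set, so Lcn2 was tested only because of its brighter arrays. Among 23 atrophy and FOXO genes 3 rose and 3 fell (13% each), with 5 fallers without CR mouse 5 and with array weights. These included Map1lc3a, which rose, and Sqstm1 and Gabarapl1, which fell, all named above with autophagy. Of 22 clock genes 3 rose (13.6%), the repressors Per2 (0.23, adjusted p = 0.00548), Cry1 (0.23, adjusted p = 0.0172) and Cry2 (0.21, adjusted p = 0.0245), and none fell. Per2 lost its call in the mean of its probe sets (adjusted p = 0.19) and Cry2 without control mouse 1 or 2 or CR mouse 2 or 3 (0.056 to 0.0703) and without control mice 1 and 3 (0.13). In the hypoxia list Egln3, an oxygen-sensing prolyl hydroxylase, ranged over 617 to 1017 (median 797) and 887 to 2659 (median 1855) and rose by 2.24-fold (adjusted p = 0.00178). It was the only riser of 25 (4%), while 3 fell (12%), or 1 without control mice 1 and 3 and 5 with array weights. The fallers included P4ha1 and P4ha2, named above with the collagen enzymes. Among 17 imprinted growth genes Peg3, a paternally expressed zinc-finger gene, ranged over 338 to 661 (median 459.7) and 724 to 1055 (median 886) without overlap and rose by 1.88-fold (adjusted p = 9.34e-05). The other Peg3 probe sets rose by 1.5-fold and 1.67-fold. Cdkn1c, a maternally expressed inhibitor of the cell cycle, fell by 1.23-fold (adjusted p = 0.00133). Of these 17, 2 rose and 3 fell (11.8% and 17.6%), with 1 faller without control mice 1 and 3. Of 18 p53 targets 4 fell (22.2%) and 1 rose (5.56%), with Phlda3, an inhibitor of AKT, at -0.40 (adjusted p = 0.000245) and Gadd45a, a growth arrest gene, at 0.38 (adjusted p = 0.00519). Mdm2, which degrades p53, was at -0.16 (adjusted p = 0.0192). The number of p53 targets that fell was 1 without control mouse 2 or 3 (or both 1 and 3) and 2 without CR mouse 1, 4 or 6. Antioxidant genes rose in 4 and fell in 4 of 31 (12.9% each), among them Prdx4, a peroxiredoxin (0.28, adjusted p = 0.0108), and the glutathione transferases Gsta4 (0.25, adjusted p = 0.0104) and Gstp1 (-0.22, adjusted p = 0.00424). Antioxidant risers numbered 2 without control mouse 5, and fallers 1 without control mouse 2 or 3 or CR mouse 4 (and without control mice 1 and 3) and 2 without control mouse 1 or 5 or CR mouse 1 or 2 and with median centring. Gsta4 had an adjusted p of 0.0508 without control mice 1 and 3, and Mdm2 lost its call without control mouse 2 or 3 or CR mouse 1 or 4 (0.0504 to 0.0541).

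Of 55 vessel, nerve and red cell markers 7 were called (12.7%, against 10.0% of all genes). Of 26 endothelial genes 4 fell (15.4%, against 5.37% of all genes) and none rose (median -0.12), with sums of 30309 to 33540 in control and 28943 to 30566 in CR mice. Aplnr, the receptor of the peptide apelin, had intensities of 503 to 801 (median 695) in control and 229.6 to 452 (median 275) in CR mice and fell by 2.24-fold (-1.17 ± 0.14, log2, SE, adjusted p = 4.2e-06), without overlap. Cd34 fell by 1.32-fold (adjusted p = 0.00186) and Emcn, endomucin, by 1.16-fold (adjusted p = 0.00325). None of 12 satellite cell genes passed, with Pax7, the defining factor of these stem cells, at 399 to 542 (median 478) in control and 368 to 478 (median 422) in CR mice (adjusted p = 0.228). Single calls were made among 15 pericyte and smooth muscle genes (Anpep), 11 nerve genes (Cnp) and 4 red cell genes (Hba-a1), and each ended without some single mice (highest adjusted p 0.113, 0.107 and 0.0958).

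Several genes outside the lists changed strongly. Smtnl2, a smoothelin-like protein, had the smallest adjusted p of the named genes. Its intensities were 4837 to 6286 (median 5301) in control and 2614 to 3153 (median 2987) in CR mice, and it fell by 1.84-fold (-0.88 ± 0.07, log2, SE, adjusted p = 1.11e-08). Pla2g7, which degrades platelet-activating factor, ranged over 1159 to 1644 (median 1296) and 409.6 to 715 (median 600.02) and fell by 2.25-fold (adjusted p = 1.52e-05). Cpeb1, which controls poly(A) tails, ranged over 603 to 1077 (median 856) and 341 to 456 (median 414) and fell by 2.06-fold (adjusted p = 3.69e-06). All 3 were free of overlap. Retnla, a resistin-like secreted protein, fell by 1.99-fold (adjusted p = 0.00245), Itih5, a hyaluronan-binding protein, by 1.77-fold (adjusted p = 6.13e-05) and Dkk3, of the Dickkopf family, by 2-fold (adjusted p = 0.0133, and 0.119 without control mice 1 and 3). Among rises, Zfp503, a zinc-finger repressor, ranged over 636 to 1016 (median 737) and 1329 to 1999 (median 1439.9) (2.04-fold, adjusted p = 0.000102). Iqsec2, an exchange factor for ARF GTPases, ranged over 569 to 779 (median 671) and 1025 to 1219 (median 1138) (1.66-fold, adjusted p = 4.89e-05). Both rose without overlap. Tfrc, the transferrin receptor that imports iron, ranged over 3355 to 6134 (median 4138) and 5787 to 9239 (median 7366) and rose by 1.62-fold with overlap (adjusted p = 0.00451, and 0.0511 without control mice 1 and 3). Npr3, the clearance receptor of natriuretic peptides, rose by 1.58-fold (adjusted p = 0.00684), Car14, a carbonic anhydrase, by 1.56-fold (adjusted p = 0.000977) and Selenbp1, a selenium-binding protein, by 1.55-fold (adjusted p = 0.000477), each without overlap. Sh3rf2 ranged over 328 to 598 (median 468) and 685 to 1096 (median 861) and rose by 1.92-fold (adjusted p = 0.0012). The transcripts Hectd2os (0.87, adjusted p = 0.000216) and Atcayos (0.70, adjusted p = 0.000207), which lie opposite the genes they are named for, also rose without overlap. The strand read by these probes was not checked. Hectd2os was dim, at 137 to 188 (median 154) in control and 229 to 431 (median 282) in CR mice. Its control median lay under the intensity cut of the filter. As with Lcn2, the cut was applied to the mean, so Hectd2os was tested only because of its brighter arrays. Ctxn3, a cortexin, changed by 0.82 (adjusted p = 0.00186) and Myom3, an M-band protein, by 0.83 (adjusted p = 0.0252), each with 5 CR mice above every control mouse. Myom3 lost the call without control mouse 2 or CR mouse 2 or 3 (0.057 to 0.0687). Gramd3 fell by 1.77-fold (adjusted p = 0.0376), a call lost in 10 of 24 settings (highest adjusted p among single-mouse refits 0.113, without CR mouse 5).

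**Figure D3:**
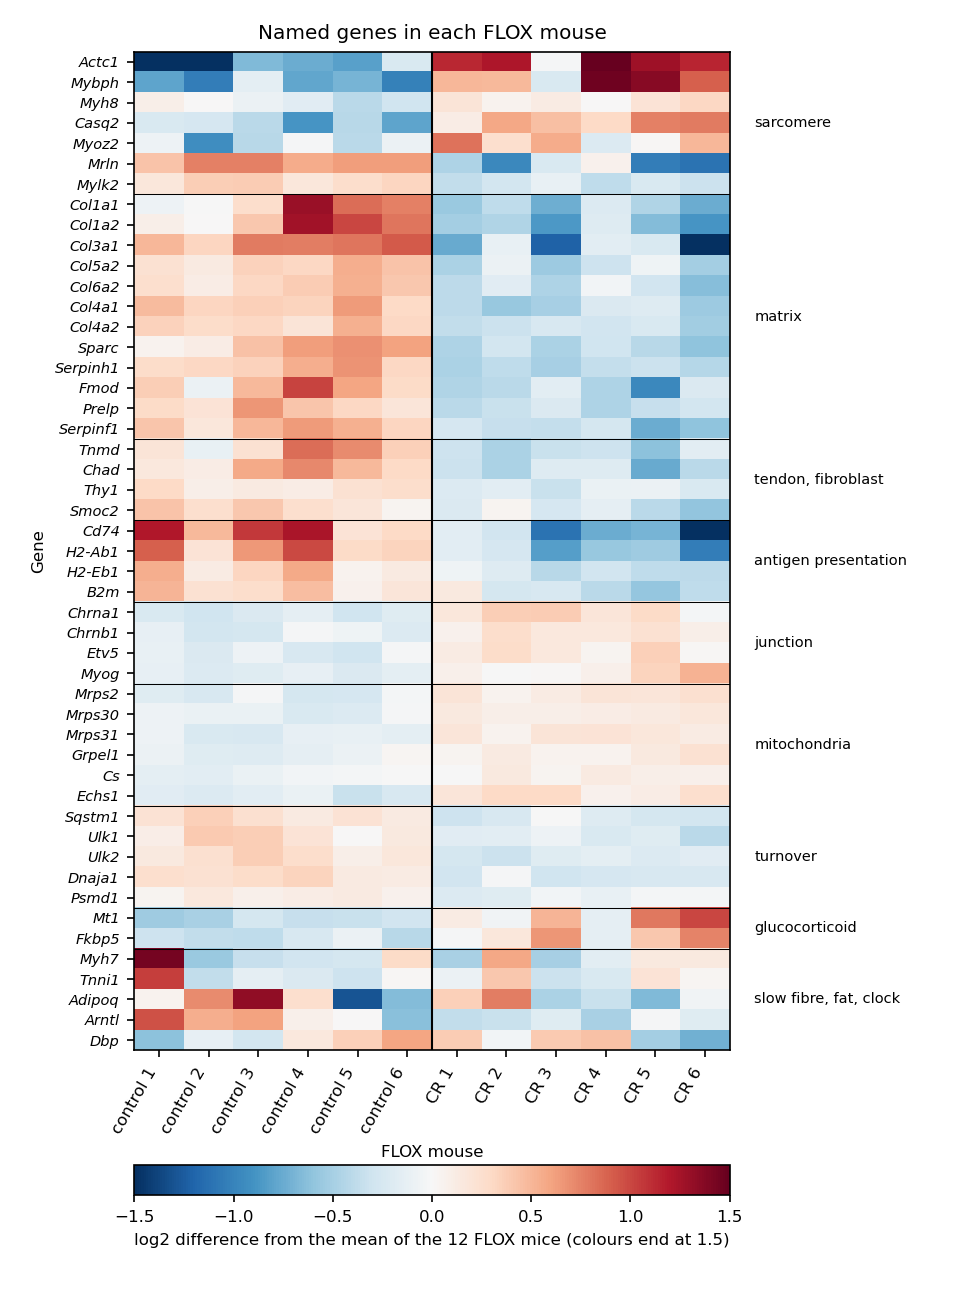
Log2 difference of 49 genes from their mean over the 12 FLOX mice, 1 column per mouse and 1 row per gene, grouped by list, with red above and blue below the mean and colours ending at 1.5. Matrix and antigen presentation rows are mostly blue in the CR columns and red in the control columns, and the last 5 rows show slow-fibre, fat and clock transcripts that differ between single mice (Myh7 is highest in control mouse 1, Adipoq in control mouse 3).

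**Figure D4:**
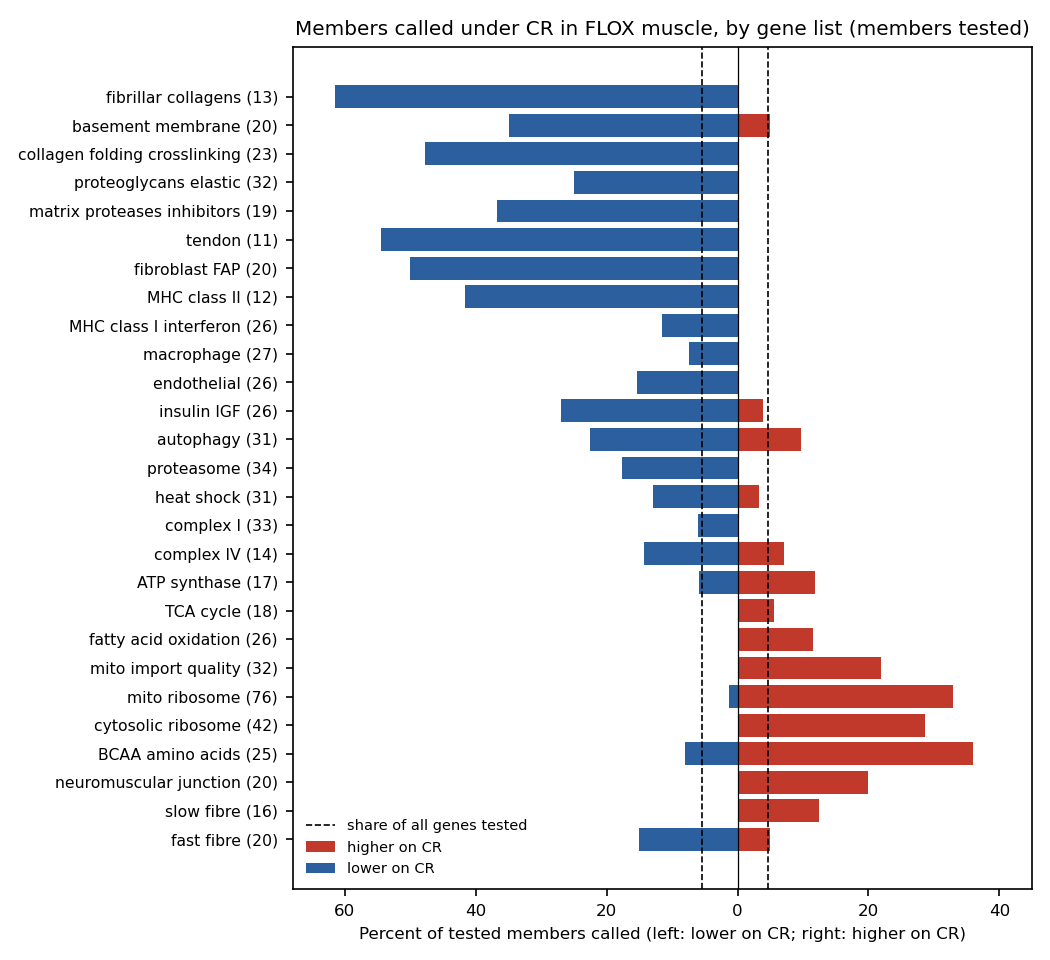
Percent of the tested members of 27 gene lists called lower (blue, left) or higher (red, right) on CR, with the number tested in brackets and dashed lines at the share of all genes tested (5.37% lower, 4.66% higher). Interstitial collagens (labelled fibrillar collagens), tendon and fibroblast lists reach farthest left and amino acid breakdown and the mitochondrial ribosome farthest right.

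The same diet contrast in mice labelled MKO used other arrays for its group means, and the lists of calls are set side by side. Both contrasts came from the same fit with a shared spread for each gene, so their calls were not independent. Ppargc1a transcript, the target of the knockout, was not lower on these arrays, so each MKO value is that of mice so labelled. In MKO muscle 2246 genes passed (15.1%), 986 higher (6.64%) and 1260 lower (8.49%). Of the 692 genes higher in FLOX, 405 were also higher in MKO (58.5% of the FLOX list and 41.1% of the MKO list). Of the 798 lower in FLOX, 565 were also lower in MKO (70.8% and 44.8%). None was called in opposite directions. Matrix genes fell in 47 of 106 in MKO and in 40 in FLOX, mitochondrial ribosome genes rose in 17 and 25 of 76, and cytosolic ribosome genes in 34 and 12 of 42. The test of the difference between the diet effects passed no gene in limma (720 genes, or 4.85%, at an unadjusted p under 0.05), so no gene is shown to respond in FLOX alone.

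Some of the largest FLOX rises were still numerically smaller in MKO. Actc1 changed by 2.17 ± 0.38 in FLOX and by 0.35 ± 0.35 in MKO (log2, SE), and the difference, MKO minus FLOX, was -1.82 ± 0.52 (adjusted p = 0.794). Mybph changed by 1.49 and 0.29 (difference adjusted p = 0.488) and Peg3 by 0.91 and 0.26 (adjusted p = 0.794). Casq2 went the other way, at 0.99 in FLOX and 1.57 in MKO (adjusted p = 0.999). Mss51 changed by -2.60 and -2.24, Col3a1 by -1.36 and -1.61, and Cd74 by -1.49 and -1.62 in FLOX and MKO (adjusted p of the difference 0.999, 0.999 and 0.999). The 5 genes with the smallest p of the difference, none of them passing, were Kcnab1, a potassium channel subunit (-0.30 in FLOX and -0.64 in MKO), Mtfp1, of mitochondrial fission (0.11 and -0.20), Tm6sf1 (0.36 and 0.08), Ube2k, a ubiquitin-conjugating enzyme (-0.13 and 0.06), and Car2, a carbonic anhydrase (0.22 and -0.06). The adjusted p of the difference for Kcnab1 was 0.389.

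**Figure D5:**
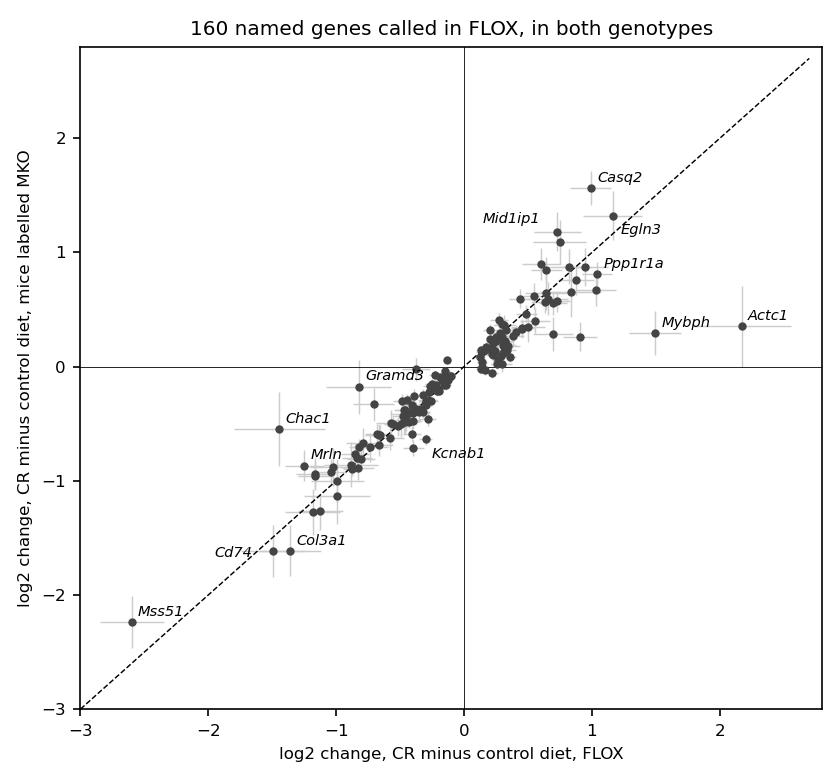
Log2 change on CR in FLOX (horizontal axis) against that in mice labelled MKO (vertical axis) for the 160 named genes called in FLOX, with bars of 1 SE and a dashed line where both are equal. Points were chosen by their FLOX calls; Actc1 and Mybph lie below the line, with MKO changes of 0.35 and 0.29, and Mss51 lies near it.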

How the data were processed

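Deposited values were 1 intensity per probe set and array, on a linear scale and processed by the authors by a method not given in the sources used here. Array medians lay between 212 and 232 and minima between 56.6 and 62.8, a floor that compresses changes of dim genes; the number of arrays limits precision. Per the labels' protocols, 6 ug of Trizol-extracted total RNA was made into biotin-labelled cRNA for Affymetrix arrays. Probe sets naming 1 gene (34945 of 45101) were kept, less those with a mean under the 30th percentile, and the brightest stood for its gene, leaving 14847 genes. In 1310 genes that probe set can bind several transcripts (suffix _s_at or _x_at).

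From these, log2(intensity + 16) was tested in limma 3.58.1 (R 4.3.3; lmFit, eBayes) on all 26 arrays with 1 mean per group. Log2 changes and folds are on this scale, which understates changes of dim genes. P-values were adjusted by Benjamini-Hochberg over all genes (threshold 0.05). The scripts were tested on simulated data. Whether array numbers pair mice of the diets was not settled. Same-number correlations of deviations ran from -0.09 to 0.29, and mice of different number were not compared.

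The 56 gene lists, the members and the alternatives were chosen with earlier results of these data known. Genes named with values came from a pool of 172: the 20 largest called rises and falls, the 3 called members of smallest p per list (the 2 of smallest p where none was called), called mitochondrial regulators, Ppargc1a, 4 myosins, and the 5 genes of smallest interaction p. Other genes named were chosen after their values were seen. Promoters are from RefSeq (139 of the 172 named genes matched).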

Additional observations from a re-analysis of the deposited data

Results flagged for a closer look

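Among 344 sets of 6 mice (172 named genes in each FLOX diet group), 13 held a mouse whose gap to the next exceeded Dixon's 95% critical value of 0.625. Chance alone gives about 1 in 20 sets, and these were 3.78%.

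In the CR group, Actc1 was lowest in mouse 3 at 7116 against 15826 in the next mouse, which was still above every control mouse. CR mouse 3 was also lowest for Sdc4 at 216 and highest for Sqstm1 at 5822, a value still under the control range. CR mouse 2 was lowest for Rheb at 3554 and for Rps26 at 5278, and highest for Dnaja1 at 1071 and Cth at 225. CR mouse 4 was highest for Pgk1 at 14576, and CR mouse 6 for Cry1 at 601.

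In the control group, mouse 5 was lowest for Myh4 at 27491 against 29012 in the next mouse. Control mouse 6 was lowest for Col5a3 at 302, control mouse 2 for Rps26 at 4797, and control mouse 3 was highest for Me1 at 5574.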

How the results depend on the processing

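Across pseudocounts of 1 and 64, no filter or the 50th percentile, quantile normalization, median centring, the mean of probe sets, an intensity trend with robust moderation, array weights, FLOX arrays only and the replicate block, the counts of called genes and of members of the lists named in this paragraph stayed within 1.5 times those reported. Over all 56 lists, each direction apart, 43 counts were of 3 or more genes; 13 of them moved by over 1.5 times without at least 1 single mouse, 13 without control mice 1 and 3, and 8 under another of these settings. With each probe set tested by itself, 2539 were called in FLOX (1131 higher, 1408 lower, 60 higher and 107 lower by at least 0.5 log2) and 3833 in MKO. At an adjusted p under 0.01, 669 genes passed in FLOX and 1111 in MKO, with 3 MHC class II, 15 mitochondrial ribosome, 5 amino acid and 3 insulin and IGF genes, and under 0.10 there were 7 junction genes. Leaving out each of the 12 mice in turn gave 1137 to 1405 changed genes, 486 to 678 higher and 617 to 776 lower, 34 to 48 higher and 56 to 95 lower by at least 0.5 log2, 35 to 43 matrix, 13 to 17 tendon and fibroblast, 4 to 5 MHC class II, 18 to 30 mitochondrial and 10 to 13 cytosolic ribosome, 6 to 9 amino acid, 6 to 7 autophagy, 3 to 6 junction, 4 to 7 insulin and IGF and 4 to 7 proteasome genes, with 2165 to 2285 in MKO and 0 for the interaction. The lowest insulin and IGF count, 4, came without CR mouse 5. The same count, 4, came without control mice 1 and 3, a setting chosen after seeing the data. With the number in the array title as a replicate block, 1493 genes changed. No count of changed genes or of the lists named in this paragraph then moved by over 1.5 times. Some small counts of other lists did, such as calcium risers, at 1 in place of 2. Whether the numbers pair the mice was not settled. Values that changed sign were those of Myh7 (-0.21 to 0.19 with single mice left out, above 0 without control mouse 1 and, at 0.0014, without CR mouse 3, and 0.16 without control mice 1 and 3), Maf (0.012) and Sdc4 (0.041), the last pair by the mean of their probe sets. Of 160 named genes called, 41 lost the call in at least 1 of 24 settings; the cause was not tested. Detection calls and scan batches were not analysed here.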

Other observations

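Some genes of fasting, glucocorticoid response and the body clock varied widely between mice of one diet, and are given here after their values were seen. Pdk4, which blocks pyruvate dehydrogenase in fasting, ranged over 4744 to 11971 (median 7305) in control and 2232 to 12148 (median 5467) in CR mice, and Ucp3, a mitochondrial carrier induced in fasting, over 1521 to 3852 (median 2519) and 1276 to 3655 (median 2717). In the CR group both were highest in mouse 6 and lowest in mouse 2. CR mice 5 and 6 were also highest for Mt2, a metallothionein, at 1093 and 943 against 386 to 525 in the other 4. Dbp, a clock output gene with a strong daily rhythm, was lowest in the same pair, at 1034 and 891 against 1436 to 2015. Control mice varied as widely in Dbp, from 958.5 in mouse 1 to 2236 in mouse 6. Arntl, which encodes the clock activator BMAL1, ranged over 235 to 731 (median 469.9) in control and 261 to 366 (median 307) in CR mice, with control mouse 1 highest and control mouse 6 lowest. The labels give neither the hour of tissue collection nor the time since the last meal.

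The ubiquitin ligases of muscle atrophy did not pass. Fbxo32 (atrogin-1) ranged over 1706 to 3779.6 (median 2284) in control and 983 to 2303 (median 1397) in CR mice (log2 change -0.80, adjusted p = 0.058), and Trim63 (MuRF1) over 4823 to 8181 (median 6340.3) and 3952 to 7273 (median 4849) (-0.31, adjusted p = 0.163). The immediate-early gene Egr1, which is also a tendon factor, ranged over 286 to 797 (median 433) and 186 to 323 (median 246) and fell (-0.76, adjusted p = 0.0189), with its highest value in control mouse 1. Fos, of the same early class, ranged over 187 to 621 (median 299) and 157 to 342 (median 183) (-0.58, adjusted p = 0.159) and was also highest in that mouse. Odc1, the first enzyme of polyamine synthesis, ranged over 1749.8 to 2826 (median 1916) and 1089 to 1630.04 (median 1349) without overlap and fell (-0.66, adjusted p = 0.00257).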
